A study of Mus musculus with 15 samples.

Results

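Livers of mice fed a high-fat diet with 2% caffeinated coffee (HFCC) were compared with livers of mice fed the high-fat diet without coffee (HF). The arrays were chosen by their titles, 3 HFCC and 3 HF of the 15 in the series. The animals were male mice of the inbred C57BL/6J strain, which gains weight readily on fat-rich food. They were 7 weeks old when feeding began and were fed for 9 weeks. The HF and HFCC diets both supplied 60% of energy as fat, and the HFCC diet also carried 2% of a freeze-dried powder of roasted caffeinated coffee. The remaining 9 arrays served as reference. They came from mice on a normal diet with 10% of energy as fat (ND), and from mice on the high-fat diet with 2% of decaffeinated coffee (HFDC) or of unroasted, caffeinated green coffee (HFGC). Total RNA of whole liver from 1 mouse was hybridized to each Affymetrix mouse genome array. The 3 mice of a group were drawn at random from a larger group, as the methods state.

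The liver takes up fatty acids from blood, stores them as triglyceride in droplets coated with perilipins, and makes cholesterol from acetyl-CoA through the mevalonate pathway. When sterols in the endoplasmic reticulum run low, the transcription factor SREBP-2 is released and switches on the genes of that pathway, so their mRNAs tend to move together. Caffeine is degraded in the liver mainly by the cytochrome Cyp1a2, and it blocks adenosine receptors.

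Values are log2 of the deposited intensities. A gene was called when limma, fitted to all 15 arrays with 5 group means, gave an adjusted p under 0.05 over 18193 genes. Hepatocyte markers fitted the label. Their summed linear intensity was 98971 to 101456 in the HF livers and 101370 to 104117 in the HFCC livers, and that of pancreas markers was 264 to 302 and 277 to 307. In whole tissue, fewer cells of a type and less RNA per cell cannot be told apart.

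The HF arrays were not alike. HF replicate 1 differed from HF replicate 2 by a median of 0.139 on the log2 scale over genes and from HF replicate 3 by 0.119, and from the 3 HFCC arrays by 0.105 to 0.116. Pairs of HFCC arrays differed by 0.0911 to 0.112. For Gapdh and Actb, which carry control probes at both ends, the 3' signal minus the 5' signal on the log2 scale, which is larger where RNA is shorter, was 1.08, 1.40 and 1.17 in the HF livers and 1.07, 0.87 and 0.84 in the HFCC livers. The difference of the means was -0.29 (two-sided exact permutation p = 0.1, which is the lowest that 3 arrays against 3 allow).

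**Figure D1:**
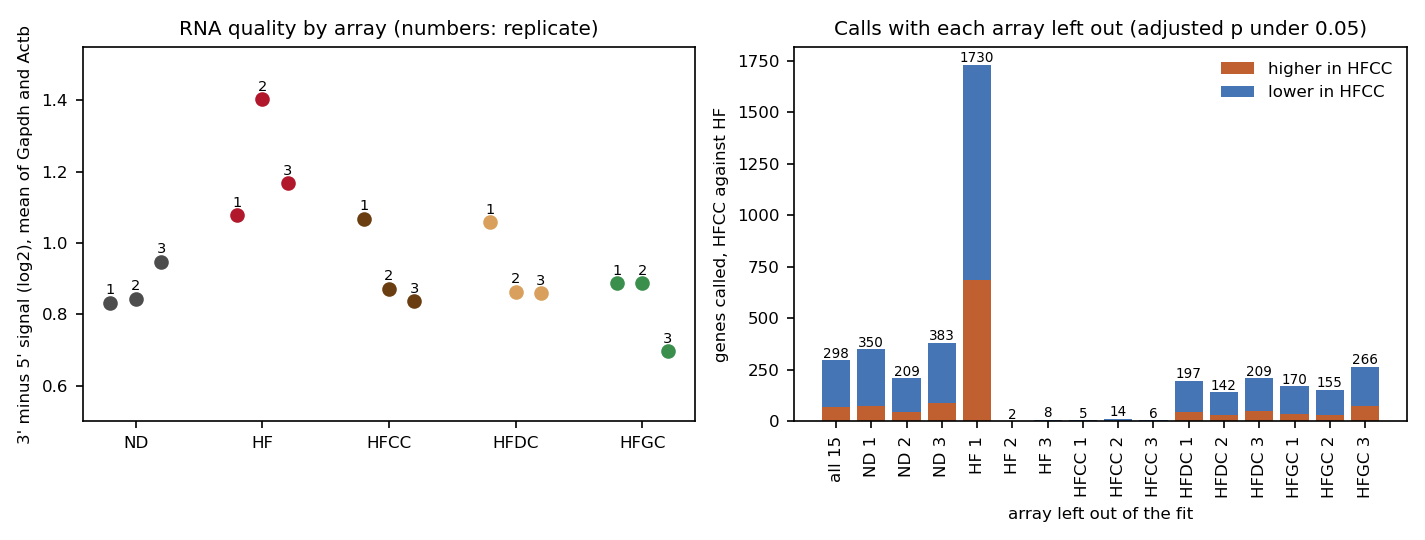
Left, 3' minus 5' log2 signal of the Gapdh and Actb controls for each array by group. Right, number of genes called in HFCC against HF with all arrays and after leaving out 1 array. The HF arrays lie between 1.08 and 1.40, and the calls range from 2 without HF replicate 2 to 1730 without HF replicate 1.

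In HFCC against HF, 298 genes were called, 1.64% of those tested. Of these, 69 rose, 0.379% of the genes tested, and 229 fell, 1.26%. After cyclic loess between arrays 95 rose and 98 fell. The median absolute log2 difference of the called genes was 0.42, 52 of them changed at least 1.5-fold and 7 at least 2-fold. The 7 were Osbpl3, Plin4, Pnldc1 and Gpat3, which fell, and Piga, Acsl3 and Rdh11, which rose. Counting these, 3345 genes (18.4%) had an unadjusted p under 0.05. The calls depended on single arrays, with 2 left without HF replicate 2, 8 without HF replicate 3 and 5, 14 and 6 without HFCC replicates 1, 2 and 3, against 1730 without HF replicate 1. Once the 3' minus 5' value was added to the model as a covariate, no gene was called by limma and 1641 had an unadjusted p under 0.05. All 298 called genes kept their sign in that fit and in the 15 fits that each left out 1 array, although the call itself held in all 15 only for Osbpl3 and St3gal3. The kept signs are not separate support, because the genes were called on these same arrays. Leaving out an array of another group does not change the difference between HFCC and HF.

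Osbpl3, a lipid transfer protein of the oxysterol-binding family, fell the most. Its log2 intensity was 6.06, 6.72 and 6.55 in the HF livers and 5.10, 5.08 and 5.05 in the HFCC livers. The lowest HF liver lay well above the highest HFCC liver, and the HFCC values sat within the ND range of 4.84 to 5.12. Osbpl3 was 2.58-fold lower in HFCC (log2 difference -1.37, standard error 0.12, adjusted p = 0.000279 from limma). Against ND the difference was 0.09 (adjusted p = 0.77). The HFDC livers held 5.67, 5.57 and 5.72, between the HF and HFCC values, and the HFGC livers 5.01, 4.96 and 5.01. The 3 probe sets of Osbpl3 gave HFCC minus HF differences from -1.37 to -0.01, all below 0.

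Plin4, a perilipin that coats lipid droplets, was at 8.57, 9.07 and 8.96 in the HF livers and at 7.62, 7.49 and 7.57 in the HFCC livers. The groups were separated by almost a full log2 unit. By limma, Plin4 fell by 1.30 (standard error 0.17, adjusted p = 0.00594), and of the fits that left out 1 array this call was lost in the one without HF replicate 2 (adjusted p = 0.0646). Its HFCC mean of 7.56 stood 0.53 above the ND mean, a difference that was not called (adjusted p = 0.111).

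St3gal3, a sialyltransferase that caps sugar chains of glycoproteins, was at 9.07, 9.39 and 9.28 in the HF livers and 8.43, 8.55 and 8.57 in the HFCC livers. It fell by 0.72 (standard error 0.08, adjusted p = 0.0033 from limma), and the difference of its other probe set was -0.17. All 3 HFCC values also lay below the ND values of 8.80, 8.93 and 8.77, without a call against ND (adjusted p = 0.0604). Paqr7, a membrane receptor for progesterone, was at 9.38, 9.58 and 9.28 in the HF livers and 8.22, 8.68 and 8.65 in the HFCC livers, a fall of 0.90 (standard error 0.12, adjusted p = 0.00617 from limma). Of the fits that left out 1 array, its call was lost in the one without HF replicate 2, and it was lost with the compared groups alone (adjusted p = 0.0707).

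**Figure D2:**
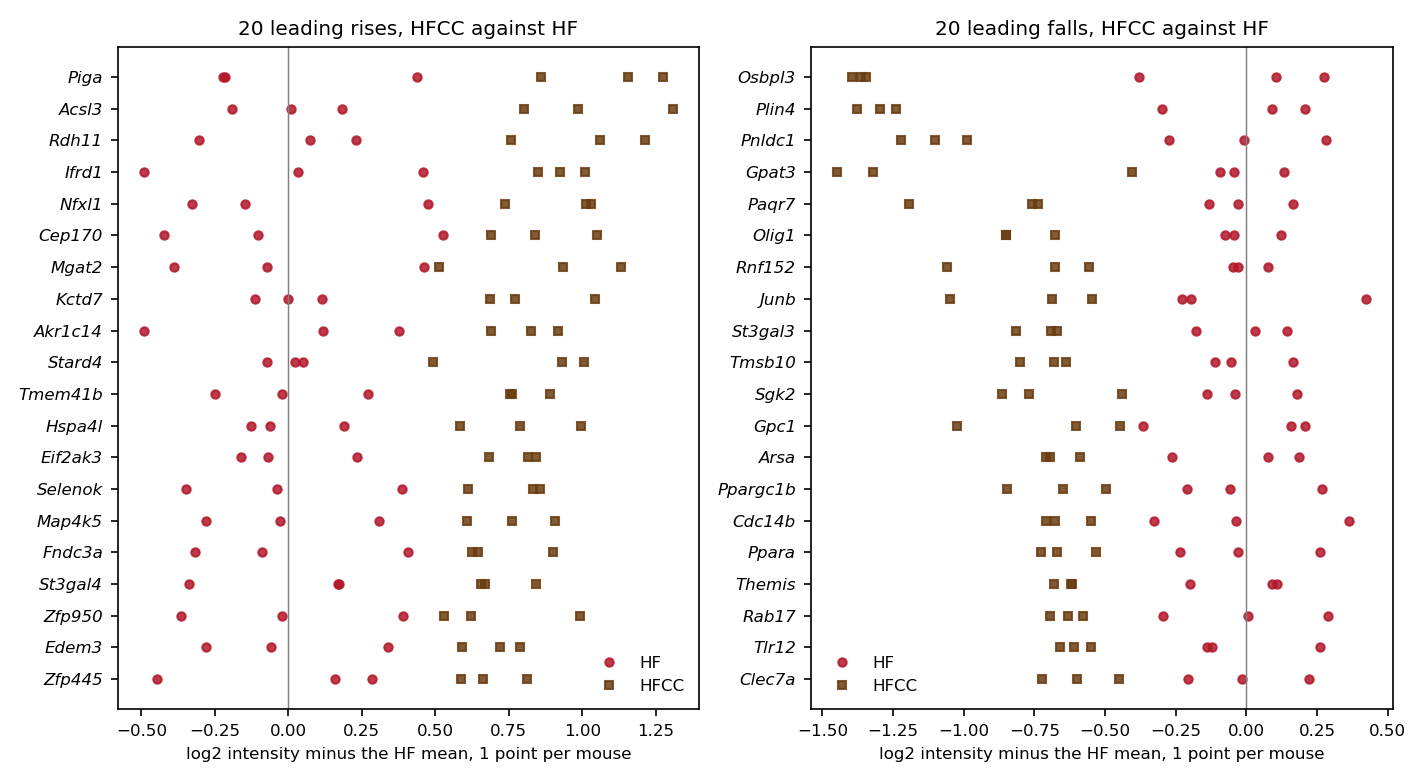
Log2 intensity of each HF and HFCC array minus the HF mean of that gene, 1 point per mouse, for the 20 largest rises (left) and falls (right) among called genes whose arrays did not overlap. Genes run from the largest difference at the top, Piga (1.10) and Osbpl3 (-1.37), downward, and HF arrays spread widely for rises such as Akr1c14 and Ifrd1.

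Gpat3, which catalyses the first step of glycerolipid synthesis, was at 7.80, 8.03 and 7.86 in the HF livers and 6.58, 7.49 and 6.45 in the HFCC livers, with HFCC replicate 2 nearest to the HF livers. It fell by 1.06 (standard error 0.24, adjusted p = 0.0438 from limma). Ppara, the nuclear receptor that drives fatty acid oxidation, fell by 0.64 from a mean of 11.01 to 10.37 (adjusted p = 0.0365), and its difference was -0.30 with the 3' minus 5' covariate. Ppargc1b, a coactivator of genes of mitochondria and lipid synthesis, fell by 0.66 (adjusted p = 0.0325), to 7.45 ± 0.18 (SD, n = 3) against 8.11 ± 0.24 in HF and 7.85 ± 0.12 in ND. Pnldc1, a ribonuclease that trims small germline RNAs, fell by 1.10 from a mean of 8.22 to 7.12, with ND at 6.55 ± 0.33.

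Values in ND are set beside those of HF and HFCC here, and the differences from HF share the HF arrays. Sgk2, a kinase related to the glucocorticoid-induced Sgk1, was at 10.68 ± 0.08 in ND, 11.37 ± 0.16 in HF and 10.68 ± 0.22 in HFCC. Junb, a subunit of the AP-1 transcription factor, was at 5.97 ± 0.05, 6.81 ± 0.37 and 6.05 ± 0.26. Clec7a, the receptor for fungal glucans on myeloid cells, was at 7.99 ± 0.19, 8.53 ± 0.21 and 7.94 ± 0.14. In these 3 the HFCC mean lay within 0.1 of the ND mean. Rnf152, a ubiquitin ligase of lysosomes, was at 8.32 ± 0.14 in ND, 8.28 ± 0.07 in HF and 7.52 ± 0.26 in HFCC, and was called lower against both (log2 differences of -0.80 and -0.76). Arsa, the lysosomal arylsulfatase A, was at 9.53 ± 0.22, 9.69 ± 0.23 and 9.03 ± 0.07, and was called against both as well (-0.50 and -0.66). The rest of the 20 largest falls, Olig1, Gpc1, Cdc14b, Themis, Rab17 and Tlr12, ranged from -0.79 to -0.61, and the probe sets of Themis, a T cell signalling protein, from -0.64 to 0.25.

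**Figure D3:**
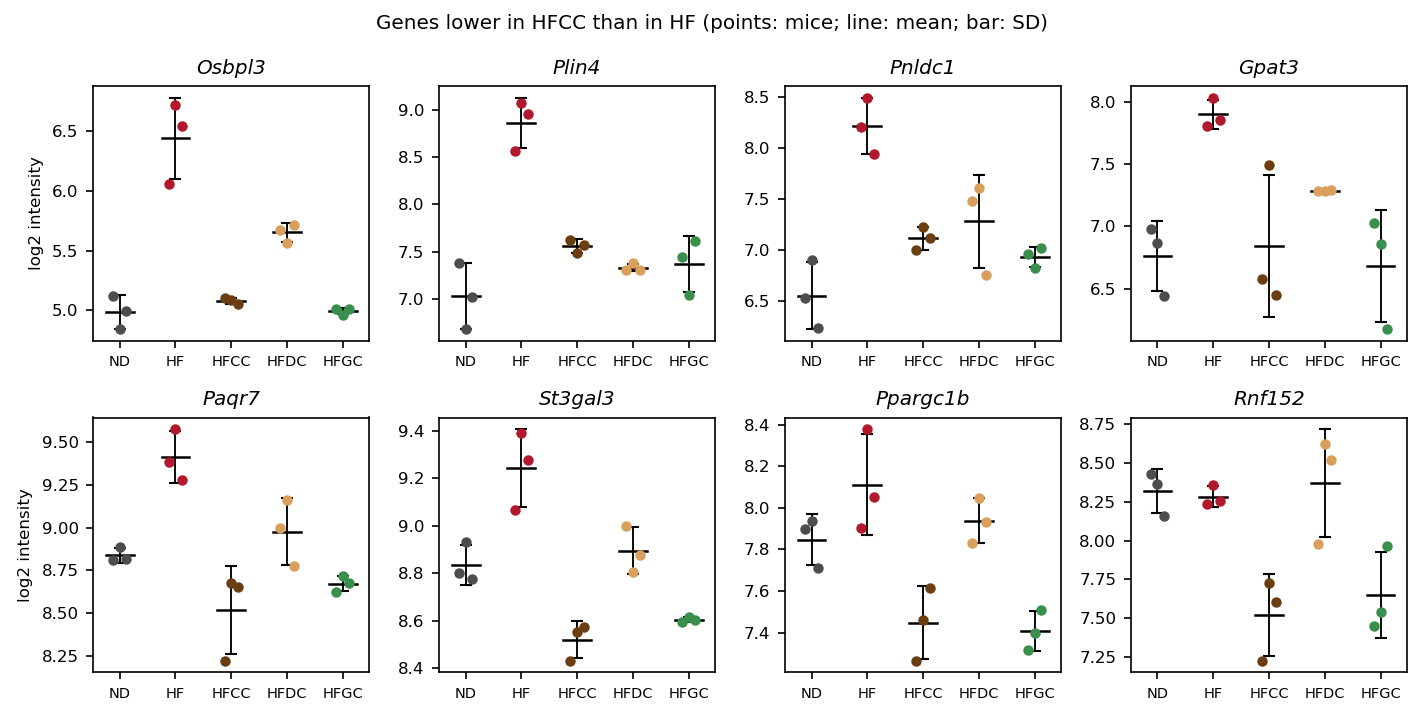
Log2 intensity of 8 genes that fell in HFCC against HF, 1 point per array in the 5 groups, with mean (line) and SD (bar). The HFCC points lie below every HF point in each panel, and those of Paqr7, St3gal3, Ppargc1b and Rnf152 also lie below every ND point.

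Piga, the catalytic subunit for the first step of GPI anchor synthesis, was at 8.07, 7.41 and 7.42 in the HF livers and 8.79, 8.91 and 8.50 in the HFCC livers. It rose the most of the called genes, 2.14-fold (log2 difference 1.10, standard error 0.18, adjusted p = 0.0318 from limma). Mgat2, which builds branched N-glycans, rose by 0.86 and St3gal4, another sialyltransferase, by 0.72. Edem3, which trims mannose from misfolded glycoproteins, rose by 0.70 and Selenok, a selenoprotein of the endoplasmic reticulum membrane, by 0.77. The HF replicates were uneven here. The Mgat2 difference was 0.30 and the St3gal4 difference 0.44 with the 3' minus 5' covariate, while that of Piga was 1.13.

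Acsl3, which activates long-chain fatty acids, was at 7.64, 7.47 and 7.27 in the HF livers and 8.44, 8.26 and 8.77 in the HFCC livers, a rise of 1.03 (standard error 0.21, adjusted p = 0.0341 from limma). Rdh11, a retinol dehydrogenase, rose by 1.01 (adjusted p = 0.0465) and Stard4, a cytosolic carrier of cholesterol, by 0.81 (adjusted p = 0.0325). All 3 were also called higher against ND, by 1.68, 1.81 and 1.39. Kctd7, a BTB-domain protein, was at 5.08, 4.85 and 4.96 in the HF livers and 5.74, 5.65 and 6.01 in the HFCC livers. It rose by 0.83 (standard error 0.11, adjusted p = 0.00594 from limma), and of the fits that left out 1 array the call was lost in the one without HF replicate 2, but its other probe set gave 0.02. Tmem41b, a lipid scramblase of the endoplasmic reticulum, rose by 0.80 (adjusted p = 0.0142), with a mean of 9.36 in HFCC, 9.33 in HFGC, 8.64 in HFDC and 8.56 in HF.

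In other rises the HF mean lay below the ND mean. Hspa4l, a heat shock chaperone, was at 8.46 ± 0.11 in ND, 7.35 ± 0.17 in HF and 8.14 ± 0.21 in HFCC. Akr1c14, a hydroxysteroid dehydrogenase, was at 11.74 ± 0.06, 10.87 ± 0.44 and 11.68 ± 0.11, and HF replicate 2 was the lowest of the HF livers at 10.38. Its difference between HFCC and HF was 0.81, and 0.32 with the covariate. Cep170, a centrosomal protein, was at 5.88 ± 0.33, 5.01 ± 0.48 and 5.87 ± 0.18, and its difference went from 0.86 to 0.46 with the covariate. Ifrd1, a transcriptional coregulator, was at 8.19 ± 0.22, 7.61 ± 0.47 and 8.54 ± 0.08, and its difference went from 0.93 to 0.45. Nfxl1, Map4k5, Fndc3a, Zfp950 and Zfp445, the rest of the 20 largest rises, ranged from 0.69 to 0.93.

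Genes of cholesterol synthesis had the highest median difference from HF of all lists of related function, although 1 of the 17 measured, Sc5d, rose by the test (0.379% of all genes rose). Of the 17, 16 had a higher mean in HFCC than in HF, the exception being Tm7sf2 with -0.01 (chosen for naming after its value was seen). Their median log2 difference was 0.78, against -0.0068 over all genes tested, and the arrays of 10 did not overlap, all 10 higher in HFCC, where 7.5% of all genes were higher without overlap. Sc5d, which makes a late sterol double bond, rose by 0.58 (adjusted p = 0.0382 from limma), a call lost without HF replicate 2 or 3, any HFCC array or HFGC replicate 2. Against ND, 16 of the 17 rose by limma (1.68% of all genes rose and 2.78% changed), with a median of 2.06. Of the same genes, 15 rose in HF against ND (8.92% of all genes rose), with a median of 1.39.

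The promoters of 4 of these enzymes are printed because sterol-regulated genes are known for a sterol regulatory element (SRE) beside CCAAT boxes. Each run is the 250 bases before the RefSeq start on GRCm38.p6, 5' to 3' on the gene's strand. Idi1 is at chr13:8885356-8885605 (+), Mvd at chr8:122443423-122443672 (-), Nsdhl at chrX:72918271-72918520 (+) and Hmgcs1 at chr13:119690101-119690350 (+). Capitals mark CCAAT, read as ATTGG on the other strand, and in Hmgcs1 also TCACNCCAC, the SRE letters searched.
Idi1: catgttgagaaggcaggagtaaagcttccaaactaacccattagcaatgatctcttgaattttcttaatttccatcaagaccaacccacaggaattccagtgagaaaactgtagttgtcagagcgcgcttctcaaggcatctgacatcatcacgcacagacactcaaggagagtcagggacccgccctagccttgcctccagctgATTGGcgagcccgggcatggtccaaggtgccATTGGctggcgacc
Mvd: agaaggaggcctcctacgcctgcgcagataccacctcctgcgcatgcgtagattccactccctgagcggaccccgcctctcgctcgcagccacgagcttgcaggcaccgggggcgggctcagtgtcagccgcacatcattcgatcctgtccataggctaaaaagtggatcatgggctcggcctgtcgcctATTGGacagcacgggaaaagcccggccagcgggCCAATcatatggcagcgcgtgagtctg
Nsdhl: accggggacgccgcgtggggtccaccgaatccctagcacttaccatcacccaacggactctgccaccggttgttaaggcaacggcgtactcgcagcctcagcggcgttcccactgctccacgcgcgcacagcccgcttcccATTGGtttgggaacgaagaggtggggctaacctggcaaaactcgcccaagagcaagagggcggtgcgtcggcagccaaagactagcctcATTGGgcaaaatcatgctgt
Hmgcs1: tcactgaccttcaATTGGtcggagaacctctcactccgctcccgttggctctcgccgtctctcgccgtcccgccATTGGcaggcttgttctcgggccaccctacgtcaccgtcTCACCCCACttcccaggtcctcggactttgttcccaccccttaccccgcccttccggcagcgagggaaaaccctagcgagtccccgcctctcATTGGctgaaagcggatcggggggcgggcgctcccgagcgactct
A window of 250 bases before to 50 after the start was available for 14 of the 17 genes. All 14 held CCAAT on either strand, against 42% of the 14452 tested genes with a window and 37.4% of all 32851 windows. Of the unfolded protein response genes described below, 23 of 28 with a window (82.1%) held it too. The SRE letters were in 1 of the 14 (7.14%), Hmgcs1, against 1.46% of the tested genes with a window and 1.24% of all windows. A match is a description of the letters and not of a bound site.

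Idi1, the isomerase that makes dimethylallyl diphosphate, was at 10.998, 10.55 and 10.35 in the HF livers and 12.21, 11.42 and 12.12 in the HFCC livers. All 3 HFCC livers lay above the HF livers, but the difference of 1.28 was not called (standard error 0.46, adjusted p = 0.143 from limma). Fdps, which joins isoprene units into farnesyl diphosphate, was at 9.51, 9.48 and 9.20 in the HF livers and 11.15, 10.07 and 11.02 in the HFCC livers, a difference of 1.35 (adjusted p = 0.0856). Sqle, the squalene epoxidase, differed by 1.26 (adjusted p = 0.32 from limma). Mvd, the mevalonate decarboxylase, differed by 1.15 (adjusted p = 0.0921), and Nsdhl, a sterol demethylase subunit, by 0.91 (adjusted p = 0.0845). Against ND these were large changes. Sqle was 16.6-fold higher, Idi1 15.2-fold, Fdps 14.7-fold and Mvd 8.77-fold, each called. Hmgcs1, which commits acetyl-CoA units to the pathway, was at 12.39, 12.52 and 12.22 in HF and 13.24, 12.47 and 12.98 in HFCC, where the groups overlapped. Its 5 probe sets gave HFCC minus HF differences from 0.52, that of the probe set used, to 1.45.

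HFCC replicate 2 was the lowest of its group across the pathway. Relative to the ND mean, the median over the 17 genes was 2.46, 1.504 and 2.20 in HFCC replicates 1 to 3, and 1.37, 1.53 and 1.17 in the HF livers. It was 1.197, 1.78 and 2.16 in the HFGC livers, and 1.28, 0.27 and 0.16 in the HFDC livers, of which replicate 1 was near the HF livers and the other two near ND. Without HF replicate 2 the HFCC minus HF median of the list was 0.70, and with the covariate 0.95. Insig1, which holds SREBP-2 back when sterols are plentiful and is itself a target, was 6.40-fold above ND in HFCC (adjusted p = 0.000133 from limma) and 0.57 above HF on the log2 scale (adjusted p = 0.255). Srebf2, which encodes SREBP-2, differed by 0.13 from HF and 0.29 from ND, neither called.

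**Figure D4:**
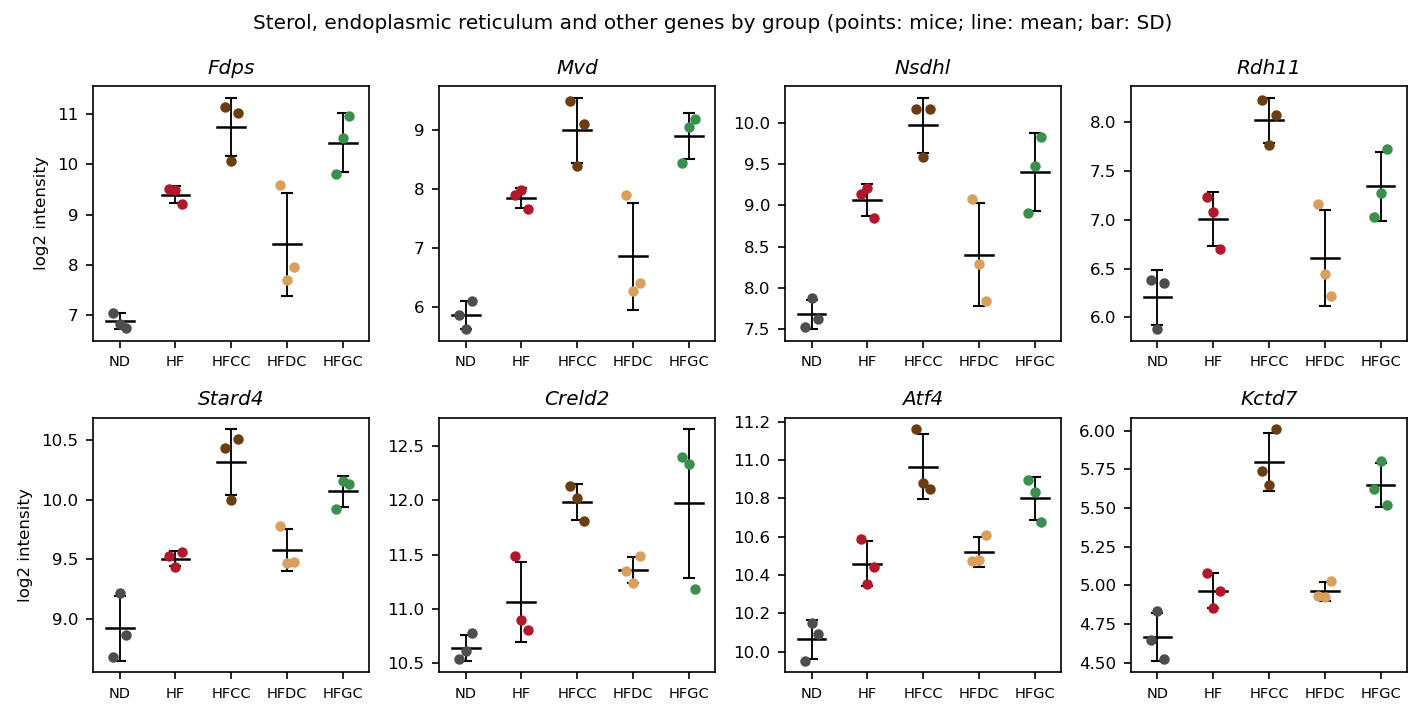
Log2 intensity of Fdps, Mvd, Nsdhl, Rdh11, Stard4, Creld2, Atf4 and Kctd7, 1 point per array in the 5 groups, with mean (line) and SD (bar). In each panel the HFCC points lie above the HF points, and in Fdps 1 HFDC point lies near the HF points (9.58) with the others at 7.69 and 7.95.

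The unfolded protein response raises chaperones when the endoplasmic reticulum is loaded, through the sensor kinases Ern1 and Eif2ak3 and the factors Atf6, Xbp1 and Atf4. Of 32 measured genes of this response, 2 rose in HFCC against HF (0.379% of all genes), 0 fell and 25 had a higher mean (47.9% of all genes), with a median of 0.25. The arrays of 18 did not overlap with HFCC higher (7.5% of all genes), and those of 1 with HFCC lower (14%). Eif2ak3 was at 7.91, 7.61 and 7.52 in the HF livers and 8.49, 8.36 and 8.52 in the HFCC livers, a rise of 0.78 (standard error 0.15, adjusted p = 0.0325 from limma). Atf4, the factor translated when Eif2ak3 is active, was at 10.59, 10.35 and 10.44 in HF and 11.16, 10.88 and 10.85 in HFCC, a rise of 0.51 (standard error 0.10, adjusted p = 0.0325). The probe sets of both ranged from 0.15 to the value given. Both calls were lost without HF replicate 2, HF replicate 3 or any HFCC array. The sensor Ern1 differed by 0.33, Xbp1 by -0.08 and Atf6 by -0.01. Asns, Chac1, Psat1, Phgdh, Mthfd2, Shmt2, Sesn2 and Trib3, also on the list, lay between -0.17 and 0.17. None of these was called.

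Against ND, 9 of the 32 rose (1.68% of all genes) and 0 fell (1.1%), with a median of 0.40. Creld2, a secreted chaperone-like protein, was 2.53-fold above ND (adjusted p = 0.0112 from limma) and differed from HF by 0.92 (adjusted p = 0.0646). Dnajb9, a cochaperone, was 2.06-fold above ND (adjusted p = 0.0153) and differed from HF by 0.77 (adjusted p = 0.0607). Hspa5, the main chaperone of the compartment, was 1.39-fold above ND (adjusted p = 0.0362) and differed from HF by 0.25 (adjusted p = 0.254). Ddit3, a factor of prolonged stress, was not called against either (0.85 and 0.63). The list's median difference was 0.04 against HFDC and -0.01 against HFGC.

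The endoplasmic reticulum stress element (ERSE), CCAAT and CCACG with 9 bases between, is the known target of Atf6. It was in the windows of 7 of the list's 28 genes with a window (25%), namely Hspa5, Hsp90b1, Dnajc3, Pdia6, Calr, Canx and Creld2, and in 0.138% of the tested genes with a window and 0.119% of all windows. The list was put together from genes known for this response, so that share describes the list and not these livers. None of the called rises or falls with a window held the element. The promoter of Creld2, at chr15:88819396-88819645 (+) on GRCm38.p6, is printed with the element in capitals as it reads on the gene's strand, since this gene had the largest difference of the list.
Creld2: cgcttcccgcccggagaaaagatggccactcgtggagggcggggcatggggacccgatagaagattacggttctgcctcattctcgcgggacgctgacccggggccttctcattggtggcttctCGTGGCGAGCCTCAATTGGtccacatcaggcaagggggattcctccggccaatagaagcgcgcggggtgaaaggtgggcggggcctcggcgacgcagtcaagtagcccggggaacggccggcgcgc

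Of 20 lipid droplet genes and PPARg targets, 18 had a lower mean (52.1% of all genes) and 1, Plin4, fell by the test (1.26%). Their median was -0.31, and the arrays of 11 lay lower without overlap (14% of all genes). Cidec, which fuses droplets, was at 6.26, 6.63 and 6.37 in the HF livers and 5.51, 4.95 and 5.33 in the HFCC livers, a difference of -1.16 (adjusted p = 0.0568 from limma). In the ND livers it was at 7.63, 6.94 and 6.75, and it was called lower in HFCC than in ND by 1.85 on the log2 scale (adjusted p = 0.00463). Plin5, the perilipin that links droplets to mitochondria, differed by -0.56 (adjusted p = 0.0637). Gpat3 was the called gene of 19 in glycerolipid synthesis, whose median was -0.15, and Ppara that of 23 in PPARa-dependent oxidation, whose median was -0.19. Both fell, as did 1.26% of all genes. De novo fatty acid synthesis (19 genes, median -0.01) and mitochondrial fatty acid oxidation (19 genes, median -0.11) had no called gene (1.64% of all genes). Arrays lay lower without overlap for 8 glycerolipid, 10 PPARa-dependent and 10 mitochondrial oxidation genes (14% of all genes). In de novo synthesis this held for 0. They lay higher without overlap for 1 gene each in de novo synthesis and mitochondrial oxidation (7.5%). By limma, 9 mitochondrial oxidation genes had an unadjusted p under 0.05 (18.4% of all genes). In sterol sensing and uptake (16 genes, median -0.09) Stard4 rose (0.379% of all genes) and Osbpl3 fell (1.26%). Scarb1, the receptor for high-density lipoprotein, differed by -0.40 (adjusted p = 0.0505 from limma), and its 3 probe sets ranged from -0.59 to -0.40.

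All 26 measured interferon and MHC class II genes had a lower mean in HFCC than in HF, as did 52.1% of all genes, with a median of -0.30, and Oas1a and Tap1 fell by limma (1.26% of all genes fell). Oas1a, a sensor of viral RNA, fell by 0.40 (adjusted p = 0.0485), and Tap1, a peptide transporter for antigen presentation, by 0.41 (adjusted p = 0.0336), with probe sets from -0.41 to 0.06. Ifit1 and Gbp6, both interferon-induced, had HFCC means of 8.47 ± 0.07 and 8.06 ± 0.13 against 9.15 ± 0.24 and 8.85 ± 0.28 in HF, and neither was called. Against ND 0 of the 26 were called, with a median of -0.08. Leaving out 1 array at a time gave 21 to 26 lower means. Relative to the ND mean, the median over the 26 genes was 0.40, 0.30 and 0.02 in HF replicates 1 to 3. It was -0.03, -0.13 and -0.003 in the HFCC livers and 0.01, 0.23 and -0.21 in the ND livers. HF replicate 3 thus lay near the HFCC livers and within the ND range.

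Of 31 measured genes of injury and matrix, 15 rose in HF against ND (8.92% of all genes), 2 in HFCC against ND (1.68%), and 1, Tmsb10, fell in HFCC against HF (1.26%). Tmsb10, which binds actin monomers, was at 9.36 ± 0.19 in ND, 10.39 ± 0.15 in HF and 9.68 ± 0.08 in HFCC, with probe sets from -0.77 to 0.09. Lgals1, a galectin, was at 9.99, 10.95 and 10.87 in the HF livers and 9.39, 10.09 and 9.23 in the HFCC livers, where the groups overlapped (difference -1.03, adjusted p = 0.0906 from limma). It was still 3.67-fold above ND in HFCC (adjusted p = 0.00661). Tpm2, a tropomyosin, was 2.58-fold above ND in HFCC (adjusted p = 0.0347) and differed from HF by -0.85 (adjusted p = 0.167).

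Cyp1a2, the caffeine demethylase, was at 11.94, 11.98 and 12.24 in the HF livers and 12.03, 12.01 and 12.18 in the HFCC livers, a difference of 0.02 with a standard error of 0.09 (adjusted p = 0.94 from limma). Its sign changed without HF replicate 1, HF replicate 2 or HFCC replicate 3. Both groups were above ND, by 0.58 and 0.60. None of the 15 genes of the aryl hydrocarbon receptor and caffeine breakdown was called by limma, with 1 at an unadjusted p under 0.05. Over all genes 1.64% were called and 18.4% had an unadjusted p under 0.05, so 0 calls in lists of this size lie near that share. Of 19 genes of adenosine receptors and cAMP none was called, with 6 at an unadjusted p under 0.05. Of 22 targets of the xenobiotic receptors CAR and PXR, 1 rose against HF (0.379% of all genes) and 8 rose against ND (1.68%). Cyp2c37, a CAR-regulated cytochrome, was at 12.31, 12.24 and 12.24 in HF and 12.63, 12.71 and 12.53 in HFCC, a rise of 0.36 (standard error 0.08, adjusted p = 0.0396 from limma). Cyp2b10, the classic CAR target, differed by 0.57 (adjusted p = 0.0568), with probe sets from 0.57 to 1.87. GCGTG, the core letters bound by the aryl hydrocarbon receptor, was in 59.3% of windows of the called rises and 56.9% of those of the called falls on either strand, against 47.8% of the tested genes with a window and 32.4% of all windows.

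Other metabolic lists had at most 1 called gene in HFCC against HF, each a fall, where 1.26% of all genes fell. Nr5a2, a nuclear receptor that drives bile acid synthesis, fell by 0.42 of 21 bile acid genes, with probe sets of both signs (-0.44 to 0.13). Foxo1, which drives gluconeogenesis in fasting, fell by 0.58 of 29 glucose and insulin genes, with probe sets from -0.58 to 0.08. Bckdha, of the branched-chain ketoacid dehydrogenase, fell by 0.43 of 44 amino acid genes, Ogdh, of oxoglutarate dehydrogenase, by 0.56 of 23 genes of the TCA cycle, Ndufa5, of complex I, by 0.31 of 66 respiratory chain genes and Psmd3 by 0.31 of 31 proteasome genes. The medians of these 6 lists lay between -0.07 and 0.02. In the immediate early and glucocorticoid list of 27 genes Ifrd1 rose (0.379% of all genes) and Junb fell (1.26%), with a median of -0.13. Over all genes 18.4% had an unadjusted p under 0.05, and no gene was called by limma among NRF2 targets (32 genes, 5 at an unadjusted p under 0.05), conjugation enzymes (23, with 6), the urea cycle (9, with 2), the clock (19, with 6), macrophage and inflammation (31, with 2), acute phase proteins (24, with 2), secreted liver proteins (28, with 5), iron (17, with 1), the cell cycle (17, with 2) or genes whose proteins the study picked (7, with 2). Among genes whose proteins the study picked from gels, Aspdh and Eif5b had an unadjusted p under 0.05 by limma, at -0.22 and -0.15. The study lists both proteins as higher in HFCC than in HF. Gnmt and Hmox1, also listed as higher, differed by 0.08 and 0.19, and Fbp1 and Rgn, listed as lower, by 0.13 and 0.15. This sets mRNA beside protein, without a test between them. Of the 9 urea cycle genes, 8 had a higher mean in HFCC than in HF (47.9% of all genes). Their median difference was 0.18, and 0.02 with the 3' minus 5' covariate. Their summed linear intensity was 42730 to 43798 in HFCC and 32994 to 38939 in HF.

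**Figure D5:**
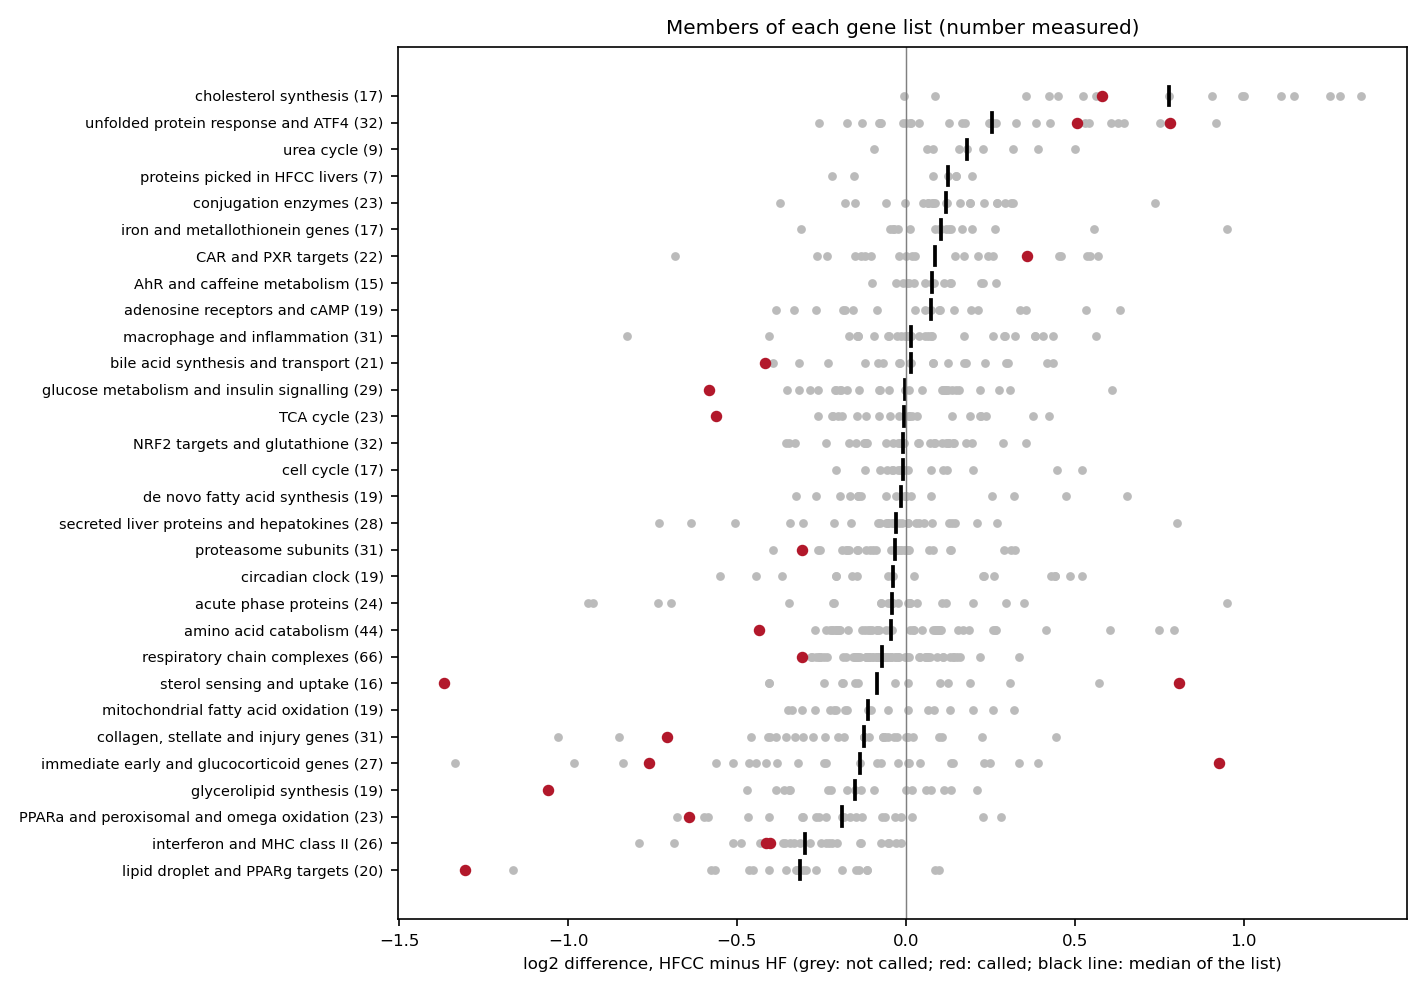
HFCC minus HF log2 difference of every measured member by list, with list medians and called genes marked. The medians run from -0.31 (lipid droplet genes) to 0.78 (cholesterol synthesis).

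None of the 10 lists of cell type markers had a called gene by limma in HFCC against HF. They held 3 to 9 measured genes each and 1.64% of all genes were called, so the lack of calls says little about cell composition. One HFCC liver stood apart in Kupffer cell markers. Marco, a scavenger receptor of these resident macrophages, was at 6.83, 6.04 and 9.47 in HFCC replicates 1 to 3, against 6.76, 7.20 and 6.68 in HF. Relative to the ND mean, the median of the 8 Kupffer markers was 0.11, -0.11 and 0.81 in the HFCC livers and 0.12, 0.20 and 0.12 in the HF livers. Their summed intensity was 4236 to 8395 in HFCC and 5341 to 5569 in HF. Without HFCC replicate 3 the Marco difference went from 0.56 to -0.45. The part of this liver's macrophage signal in other results was not tested.

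Caffeinated coffee was also compared with decaffeinated coffee, which asks what differs between the coffees on the same diet. The HF arrays entered this fit through the shared variance alone. Of 18193 genes, 17 were called (0.0934%), 11 of them higher in HFCC (0.0605%) and 6 lower (0.033%). With the 2 compared groups alone limma called 0, with probe sets averaged 1, and with all probe sets, an offset of 32 added to the intensities or the replicate number as a block 2. The 11 included 3 enzymes of cholesterol synthesis. Fdps was at 11.15, 10.07 and 11.02 in the HFCC livers and 9.58, 7.69 and 7.95 in the HFDC livers, 5.06-fold higher (adjusted p = 0.042 from limma). Mvd was 4.39-fold higher and Nsdhl 2.96-fold (adjusted p = 0.042 for both). Atp6v0d2, a subunit of the proton pump of lysosomes, was 2.74-fold higher, Rdh11 2.65-fold and Ildr2, a membrane protein of the immunoglobulin family, 2.15-fold. Kctd7 (0.84), Tmem41b (0.72), the glutathione transferase Gsta3 (0.60), Nudt2 (0.50) and Pradc1 (0.43) completed the rises on the log2 scale.

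The 6 lower genes were Plscr1, Pnpla7, Ralgps2, Fbxo21, Dyrk2 and Hykk. Pnpla7, a lysophospholipase, was at 10.10, 10.09 and 10.39 in HFCC and 11.23, 11.01 and 11.06 in HFDC, a fall of 0.91 (standard error 0.10, adjusted p = 0.0031 from limma). The HFDC values of Pnpla7 sat by the ND values of 11.25, 11.25 and 11.09, and the HF livers were at 10.65, 10.34 and 10.39. Plscr1, an interferon-induced phospholipid scramblase, differed by -0.9985 between HFCC and HFDC (adjusted p = 0.0406), Ralgps2 and Fbxo21 by -0.67 each, Dyrk2 by -0.54 and Hykk by -0.48. Only Pnpla7 and Kctd7 kept their call in all 15 fits that left out 1 array. The other, brighter probe set of Kctd7 gave an HFCC minus HFDC difference of 0.09. The probe sets of Hykk ranged from -0.48 to 0.17 and those of Gsta3 from 0.60 to 0.71. The number called was 40 without HFDC replicate 1, 29 without HFGC replicate 1 and 2 without ND replicate 2, HF replicate 3 or HFCC replicate 1, and it stayed within 1.5 times of 17 only without ND replicate 1 or HFGC replicate 3.

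Against green coffee, which is also caffeinated, limma called no gene in HFCC, and 464 had an unadjusted p under 0.05. The median difference of the cholesterol synthesis genes was 0.31 against HFGC and 1.57 against HFDC. Fdps was at 10.75 ± 0.59 in HFCC, 10.43 ± 0.59 in HFGC and 8.41 ± 1.03 in HFDC, and Stard4 at 10.32 ± 0.28, 10.07 ± 0.13 and 9.58 ± 0.18. Against ND, HFCC livers differed in 506 genes (2.78%), 305 higher (1.68%) and 201 lower (1.1%), and HF livers in 2465 (13.5%), 1622 higher (8.92%) and 843 lower (4.63%). These comparisons share arrays and were not tested against each other. The 506 calls of HFCC against ND went to 153, 170 and 260 without HFCC replicates 1, 2 and 3 and to 237 without ND replicate 1, and the 2465 of HF against ND to 989 without HF replicate 2 and 1161 without HF replicate 3.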

How the data were processed

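RNA of 15 livers was measured on 15 Affymetrix arrays, 3 in each of 5 groups. The authors labelled 250 ng of total RNA per array and normalized the arrays together by RMA, which corrects background and summarises probe sets. What they deposited are linear intensities. The software used for RMA is not given in the sources used here, and log2 was taken here. Groups and replicates came from the labels, and 0 columns lacked a sample.

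Of 45101 probe sets, 34945 had exactly 1 symbol in the platform annotation, 932 had several and 9160 had none listed. The brightest probe set stood for each of 18193 genes, one ending in _x_at only where there was no other. Contrasts were fitted with limma 3.58.1 in R 4.3.3 to all 15 arrays with 5 group means (10 residual degrees of freedom), and p-values were adjusted by Benjamini-Hochberg over all genes. The scripts were tested on simulated data. Replicates are separate mice, and their number limits the precision. Over genes, standard errors of log2 differences had a median of 0.0918.

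Genes were named by a rule. It takes the 20 largest rises and falls among called genes whose arrays did not overlap, leading members of each list, and each gene called between coffees. The members and lists were chosen with earlier results of these data known. Lists were described by counts and medians, without a test. Promoters were RefSeq windows on GRCm38.p6, and the array's own build is not named. The alternatives were other choices of probe sets, a filter on dim genes, cyclic loess, an offset of 32, the compared groups alone, a replicate block, trend and robust eBayes, other thresholds, the 3' minus 5' covariate, HF replicate 1 as the only HF array and each array left out.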

Additional observations from a re-analysis of the deposited data

Results flagged for a closer look

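The difference between caffeinated and decaffeinated coffee was tested directly by limma, and 17 genes passed. With the compared groups alone limma called 0, with probe sets averaged 1, and with all probe sets, the offset of 32 or the replicate block 2. On the log2 scale, HFCC minus HFDC was 2.34 for Fdps, 2.13 for Mvd, 1.57 for Nsdhl, 1.45 for Atp6v0d2, 1.41 for Rdh11 and 1.11 for Ildr2. It was 0.84 for Kctd7, 0.72 for Tmem41b, 0.60 for Gsta3, 0.50 for Nudt2 and 0.43 for Pradc1. It was -0.9985 for Plscr1, -0.91 for Pnpla7, -0.67 for Ralgps2, -0.67 for Fbxo21, -0.54 for Dyrk2 and -0.48 for Hykk. Pnpla7 and Kctd7 kept their call in all 15 fits that left out 1 array, but the other, brighter probe set of Kctd7 gave 0.09. All 17 kept their sign in those fits, which is not separate support because they were called on the same arrays.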

How the results depend on the processing

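In HFCC against HF, the 69 rises and 229 falls became 27 and 102 with probe sets averaged, 105 and 217 with all probe sets, 208 and 619 among genes at or above the median level, 95 and 98 after cyclic loess, 85 and 464 with an offset of 32, 4 and 10 with the compared groups alone, 405 and 816 at an adjusted p under 0.10, 32 and 20 at 1.5-fold or more, 0 and 0 with the 3' minus 5' covariate, and 0 and 1 with HF replicate 1 as the only HF array. Without 1 array they ranged from 0 to 687 rises and 2 to 1043 falls, both lowest without HF replicate 2 and highest without HF replicate 1. HFDC replicate 2 (33 rises, 109 falls), HFGC replicates 1 (38, 132) and 2 (31, 124), ND replicate 2 (44 rises) and HFDC replicate 1 (150 falls) each moved a count by over 1.5 times. All 298 genes kept their sign with the covariate, 265 of them at an unadjusted p under 0.05, and with HF replicate 1 as the only HF array. They were called on these same arrays, so this is not separate support.

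Calls of HFCC against HFDC, 17, became 1 with probe sets averaged, 2 with all probe sets or the offset, 0 with the groups alone (limma), 60 at an adjusted p under 0.10 and 8 with HF replicate 1 alone, and 2 to 40 without 1 array. Calls of HFCC against ND, 506, became 163 with the groups alone, 927 at an adjusted p under 0.10, 212 at 1.5-fold or more and 153 to 566 without 1 array. Calls of HF against ND, 2465, became 4203, 481, 3785, 374, 14 and 6 with all probe sets, the groups alone, an adjusted p under 0.10, 1.5-fold or more, the covariate and HF replicate 1 alone, and 989 to 3132 without 1 array. HFCC against HFGC had 1 call with all probe sets and 0 elsewhere. The causes were not tested.

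The replicate numbers were not taken to pair the mice. Deviations of same-numbered arrays from their group means had an r of -0.28 to -0.03 between HF and HFCC and of 0.06 to 0.23 between HFCC and HFDC, where each HFCC array correlated best with its own number but HFDC replicate 3 with HFCC replicate 2 (0.0814), a hint from the data and not from the design. With the replicate block 72 genes rose and 228 fell in HFCC against HF, 228 of the calls were shared with the fit without it, and 2 were called in HFCC against HFDC. Among single genes, without 1 array Cyp1a2 ranged from -0.0334 to 0.116, Marco from -0.45 to 1.27 and Tm7sf2 from -0.12 to 0.106, reversed at one end. Tm7sf2 also became 0.0215 after cyclic loess and 0.25 with the covariate.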
